A study of Homo sapiens with 5 samples.

Results

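NRAS was the member of the RAS and RAF gene set whose level differed most between Ishikawa cells with and without a hairpin against LINC00958. It averaged 28.5 ± 4.88 TPM (SD, n = 3) in cells carrying the hairpin and 96.1 ± 2.19 TPM (SD, n = 2) in control cells, which is 29.7% of the control mean. The set was chosen by gene name and holds 8 of the 58174 genes in the deposited table: the RAS GTPases NRAS, HRAS, RRAS, RRAS2 and MRAS, the RAF kinases ARAF and BRAF, and NF1. It was drawn up with the result for NRAS in this comparison already known. The values of the 8 genes between the groups are therefore a description, and no p-value is given for them.

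RAS proteins are small membrane-bound GTPases that switch between an inactive GDP-bound and an active GTP-bound form. Exchange factors load them with GTP below growth factor receptors, and GTPase-activating proteins such as NF1 return them to the inactive form. Active RAS recruits RAF kinases, which phosphorylate MEK, and MEK phosphorylates ERK. Activation of this cascade by mutation is frequent in cancers, endometrial carcinoma among them.

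The 5 RNA sequencing libraries came from Ishikawa cells, a human cell line established from an endometrial carcinoma. In 3 of them (sh-LINC00958) the cells carried a lentiviral short hairpin RNA against the long non-coding RNA LINC00958, and in 2 (sh-NC) a negative control. All the cells were under puromycin selection, at 2.5 µg/ml from 72 h after infection. The sources used here do not give how many hairpins were used, whether cells were cloned or when RNA was taken. No label ties the libraries of a group to separate cultures, so the spread behind every error and p-value here may be technical. Values are TPM (transcript abundance per gene length), which divides reads by gene length and scales each library to the same total, so sequencing depth is unknown and every level depends on the rest of the library's RNA. In such bulk samples, fewer cells with a transcript and less of it per cell cannot be told apart.

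LINC00958 itself stood at 67.2, 67.1 and 58.4 TPM in sh-LINC00958 against 119 and 137 TPM in sh-NC, so the libraries followed their labels. Between 27896 and 29411 genes were above 0 per library. Of 9 markers of Müllerian epithelium, 7 were above 0 in every library, with summed levels of 2212 to 2355 TPM in sh-LINC00958 and 2286 to 2289 TPM in sh-NC. The exceptions were FOXA2, listed at 0 throughout, and ESR1, the estrogen receptor alpha gene, listed at 0 in all libraries but sh-LINC00958 replicate 3, where it was 0.0149 TPM. Summed markers reached at most 5.87 TPM for fibroblasts (6 genes), 3.77 TPM for blood cells (6 genes) and 6.90 TPM for endothelial cells (5 genes).

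NRAS (ENSG00000213281, GRCh38 chromosome 1, 114704469 to 114716894, minus strand) encodes one of the classical RAS GTPases. Its level was 27.8, 33.7 and 24.1 TPM in sh-LINC00958, against 94.5 and 97.6 TPM in sh-NC. The highest sh-LINC00958 library lay far below the lower control library, and the controls were close to each other. On the log2(TPM + 1) scale NRAS differed by -1.73 ± 0.147 (SE), with a 95% interval of -2.09 to -1.37. Ranked from the lowest, it was number 19 among the 17049 genes tested, those with a mean of at least 1 TPM. With any single library left out, the difference stayed between -1.62 and -1.85.

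HRAS (ENSG00000174775, chromosome 11, 532242 to 537287, minus strand), its classical relative, measured 69.2, 68.4 and 79.6 TPM in sh-LINC00958 and 66.8 and 53.1 TPM in sh-NC. All the sh-LINC00958 libraries lay above both controls, but the controls differed from each other by more than the gap between the groups. The log2 difference was 0.27 (95% interval -0.04 to 0.59), 0.44 with sh-NC replicate 1 left out and 0.11 with replicate 2 left out. The ratio of NRAS to HRAS within a library does not depend on how libraries are scaled. The ratio is not corrected for base composition, in which NRAS (38.4% GC) and HRAS (65.8% GC) differ. It was 0.401, 0.493 and 0.302 in sh-LINC00958 and 1.41 and 1.84 in sh-NC. NRAS thus went from the more abundant of the pair in every control library to the less abundant in every sh-LINC00958 library.

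**Figure D1:**
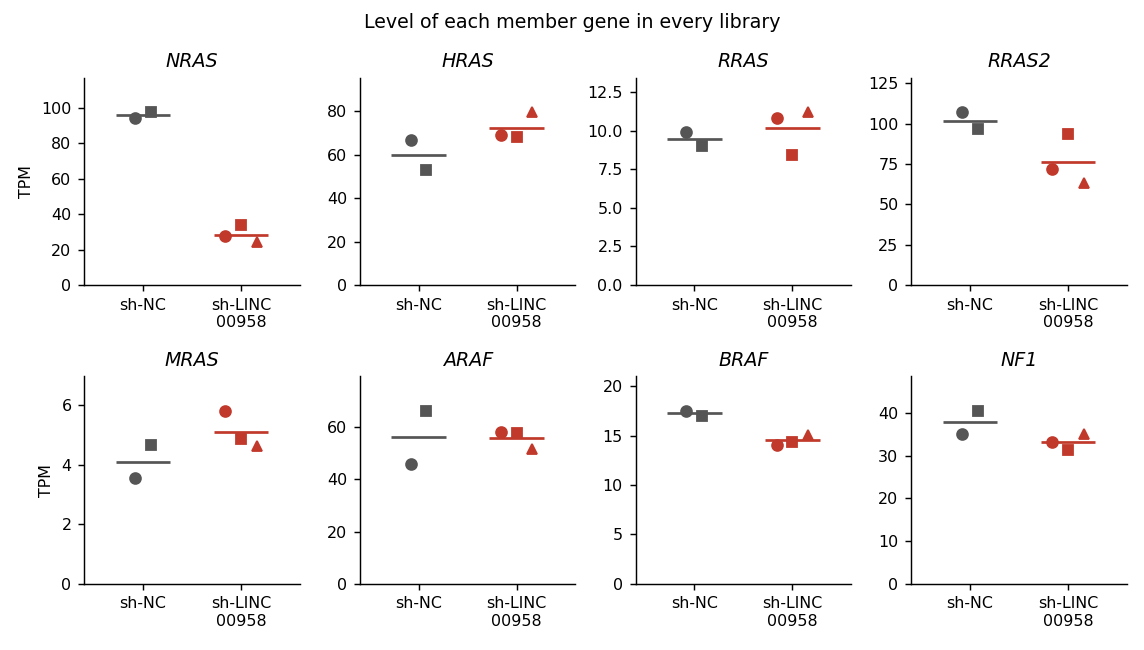
TPM of each of the 8 genes in sh-NC (grey, n = 2) and sh-LINC00958 (red, n = 3). Each point is 1 library (circle, square and triangle are replicates 1, 2 and 3), each line a group mean, and each vertical axis starts at 0. NRAS sits at 24.1 to 33.7 TPM in sh-LINC00958 and at 94.5 and 97.6 TPM in sh-NC, while the groups of the other genes lie close together or overlap.

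The R-RAS branch comprises RRAS, RRAS2 and MRAS, which share much of the effector-binding region of classical RAS. RRAS2 (ENSG00000133818, chromosome 11, 14277926 to 14364506, minus strand), also known as TC21, measured 72.1, 93.5 and 62.9 TPM in sh-LINC00958 and 107 and 96.5 TPM in sh-NC. The groups did not overlap, but sh-LINC00958 replicate 2 lay close below the lower control. The log2 difference was -0.43 (95% interval -0.85 to -0.01), and -0.59 without that library. RRAS2 lies 1288.4 kb from LINC00958 on the same chromosome.

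RRAS (ENSG00000126458, chromosome 19, 49635292 to 49640201, minus strand), a GTPase linked to integrin adhesion, measured 10.8, 8.44 and 11.2 TPM against 9.89 and 9.00 TPM. Its groups overlapped, with a log2 difference of 0.08 (95% interval -0.29 to 0.46). MRAS (ENSG00000158186, chromosome 3, 138347648 to 138405534, plus strand) encodes the GTPase that forms a RAF-activating phosphatase complex with SHOC2 and protein phosphatase 1. It was the lowest of the 8 at 5.81, 4.87 and 4.62 TPM against 3.54 and 4.65 TPM, with overlapping groups and a log2 difference of 0.26 (95% interval -0.14 to 0.67).

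Summed over the RAS GTPases of the set, the level was 186, 209 and 182 TPM in sh-LINC00958 and 282 and 261 TPM in sh-NC. NRAS made up 15.0%, 16.1% and 13.2% of that sum in sh-LINC00958 and 33.5% and 37.4% in sh-NC. Without NRAS the sum was 158, 175 and 158 TPM against 187 and 163 TPM, and the groups overlapped.

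Of the RAF kinases, BRAF (ENSG00000157764, chromosome 7, 140719327 to 140924928, minus strand) measured 14.1, 14.4 and 15.1 TPM in sh-LINC00958 and 17.5 and 17.0 TPM in sh-NC. The groups did not overlap and each was tight, and the log2 difference was small at -0.24 (95% interval -0.48 to 0.00). Of the BRAF exon bases 5.29% also lie in exons of NDUFB2, an abundant gene on the other strand (186 to 239 TPM), and the strand setting of the counting is not known. ARAF (ENSG00000078061, chromosome X, 47561100 to 47571920, plus strand), its paralog, measured 58.2, 57.7 and 51.5 TPM against 46.0 and 66.1 TPM. The control libraries enclosed all the sh-LINC00958 values. The ARAF log2 difference was 0.01 (95% interval -0.39 to 0.41), and the controls decided its sign, at -0.24 with sh-NC replicate 1 left out and 0.27 with replicate 2 left out.

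NF1 (ENSG00000196712, chromosome 17, 31094927 to 31382116, plus strand), the neurofibromin gene, measured 33.2, 31.4 and 35.0 TPM in sh-LINC00958 and 35.2 and 40.5 TPM in sh-NC. The groups were separated by less than the spread within either, and the log2 difference was -0.18 (95% interval -0.43 to 0.07).

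In sh-NC the order of levels, from the highest, was RRAS2, NRAS, HRAS, ARAF, NF1, BRAF, RRAS and MRAS. The ranges of RRAS2 and NRAS overlapped, as did those of HRAS and ARAF. In sh-LINC00958 the order was RRAS2, HRAS, ARAF, NF1, NRAS, BRAF, RRAS and MRAS, with overlap between RRAS2 and HRAS and between NF1 and NRAS. NRAS moved from the second place to the fifth, and the order of the others was the same in both groups.

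All 8 genes passed the filter on low values. In the fit across all genes (limma on log2(TPM + 1), Benjamini-Hochberg adjusted p of at most 0.05), 1 of the 8, NRAS, was past the threshold, where 9.8% of the 17049 tested genes were. As the set was drawn up with the NRAS result known, this count is a description. Groups did not overlap for 4 of the 8 in the downward direction and for 1 in the upward direction, beside 25.5% and 24.4% of tested genes (49.9% in either direction). The median log2 difference was -0.08 over the 8 genes and 0.00 over all tested genes. NRAS was not past the threshold when either control library was left out, although its difference barely moved, and RRAS2 came past it without sh-LINC00958 replicate 2.

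**Figure D2:**
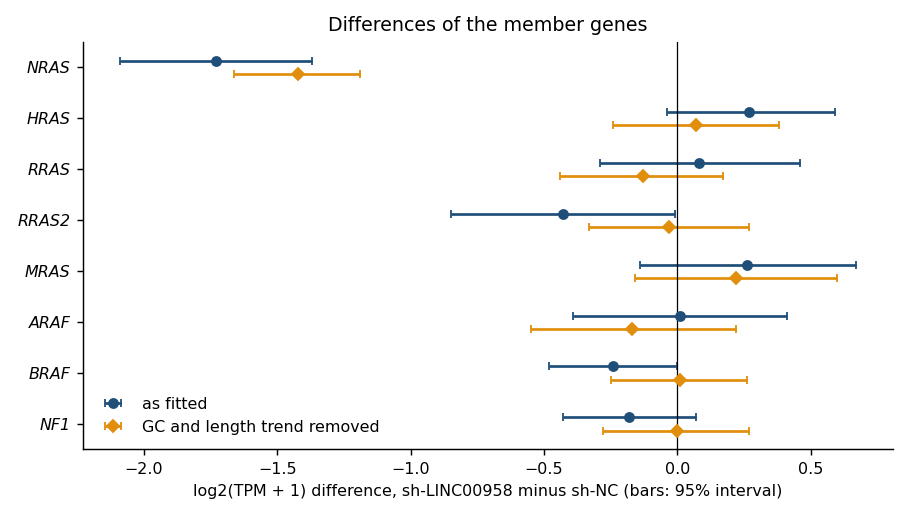
Log2(TPM + 1) difference of each gene, sh-LINC00958 minus sh-NC, with 95% intervals from limma, as fitted (circles) and after a trend on GC content and transcript length was removed (diamonds). NRAS stands at -1.73 and -1.42, and the other points lie between -0.43 and 0.27.

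Differences between the groups followed the base composition of transcripts. The GC content of the longest transcript was used to split tested genes into 4 bins with near-equal numbers of genes. The median log2 difference was -0.29 in the bin of lowest content (23.08% to 42.03%), -0.06 and 0.09 in the next bins, and 0.18 in the bin of highest content (56.01% to 86.36%). NRAS (38.4%), RRAS2 (35.9%), BRAF (40.0%) and NF1 (41.6%) fell in the lowest bin, and HRAS (65.8%), RRAS (63.5%) and ARAF (58.9%) in the highest, with MRAS at 50.0%. The 4 genes of low GC content were the 4 whose groups did not overlap in the downward direction.

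A trend on GC content and transcript length was then subtracted from every library (the composition correction). After it, the log2 difference of NRAS was -1.42 (95% interval -1.66 to -1.19). That of RRAS2 was -0.03 (95% interval -0.33 to 0.27) and that of BRAF 0.01 (95% interval -0.25 to 0.26). The NF1 interval was -0.28 to 0.27. HRAS stood at 0.07, RRAS at -0.13, ARAF at -0.17 and MRAS at 0.22, each with an interval that included 0. The part of base composition in the uncorrected differences was not tested beyond this. NRAS was again the 1 gene of the 8 past the threshold, beside 5.3% of the 16999 genes in that fit.

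**Figure D3:**
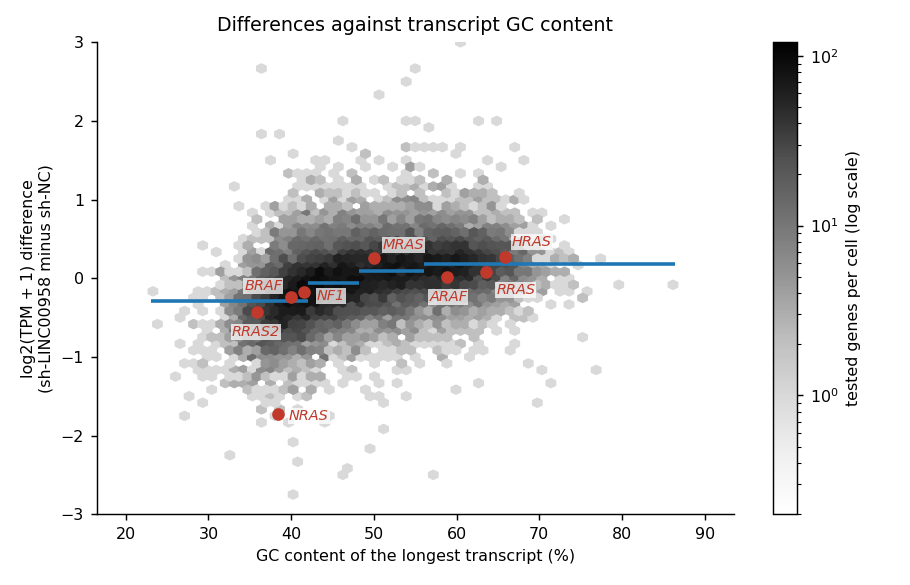
Log2(TPM + 1) difference, sh-LINC00958 minus sh-NC, against the GC content of the longest transcript in percent. Shading gives the number of tested genes on a log scale (genes beyond 3 in either direction are not shown), blue lines the median of each GC bin, and red points the 8 genes. NRAS lies far below the median of -0.29 of its bin, and the other genes lie within the shaded bulk.

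Genes near NRAS on chromosome 1 were examined next, from a list drawn up with earlier results of these data known. Their calls and p-values are a description. Of 11 listed neighbours 6 were tested, and 1 passed in limma, against 9.8% of all genes tested in either direction. The 6 differences were all below 0, with a median of -0.31 against 0.00 over all genes tested. All of these neighbours but VANGL1 fell in the lowest GC bin, whose own median was -0.29. The neighbour that passed was TRIM33, a ubiquitin ligase of TGF-beta signalling that starts 205.7 kb from the NRAS start, which fell from 50.8 and 47.1 TPM to 25.5, 26.2 and 25.2 TPM (log2 difference -0.91, limma adjusted p = 0.0089). SIKE1, a suppressor of the kinase IKK epsilon that starts 63.8 kb away on the other side, measured 47.6, 72.7 and 43.9 TPM in sh-LINC00958 and 67.9 and 72.6 TPM in sh-NC. Its groups overlapped, with a log2 difference of -0.39 (95% interval -0.92 to 0.14, limma adjusted p = 0.280). TSPAN2, a tetraspanin gene, measured 1.16, 1.16 and 0.864 TPM against 2.01 and 3.39 TPM, and its groups did not overlap, but it did not pass (-0.82, limma adjusted p = 0.0671). BCAS2, a splicing factor gene, also did not overlap and did not pass (-0.22, limma adjusted p = 0.109). Among all tested genes, groups did not overlap for 25.5% in the downward direction. The groups of DENND2C and VANGL1 overlapped, with differences of -0.23 and -0.08. After the composition correction TRIM33 was still called, at -0.62, and the differences of TSPAN2, BCAS2 and SIKE1 were -0.42, 0.05 and 0.02. Those of DENND2C and VANGL1 were -0.02 and 0.00, so the neighbours were no longer all below 0.

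**Figure D4:**
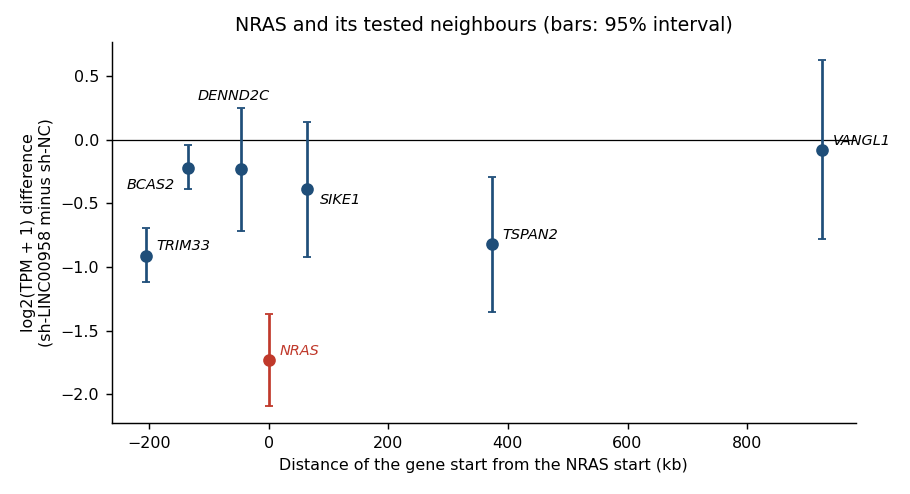
Log2(TPM + 1) difference of NRAS (red) and 6 tested neighbours (blue), sh-LINC00958 minus sh-NC with 95% intervals, against the distance of each gene's start from that of NRAS in kb. NRAS is lowest at -1.73, TRIM33 stands at -0.91 and SIKE1 at -0.39.

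The genes most like NRAS across the 5 libraries were found by the root mean square difference between log2(TPM + 1) profiles, each centred on its own mean. The search covered 11313 genes with a mean of at least 5 TPM. Genes whose symbols have the form of a clone or small RNA name were left out. The closest were RFC3, a clamp loader subunit of DNA replication, at 0.088, and NAA50, an N-terminal acetyltransferase, at 0.0905. MIGA1, a mitochondrial outer membrane protein gene, CHIC1 and EPB41L4B followed at 0.127, 0.154 and 0.161. NRAS itself deviated from its own mean by 0.861 on this measure. The 5 genes were chosen for this likeness, so their levels are a description. RFC3 measured 22.9, 27.0 and 22.8 TPM against 75.6 and 81.8 TPM, and NAA50 75.2, 85.6 and 72.4 TPM against 247 and 241 TPM. As in NRAS, sh-LINC00958 replicate 2 was the highest of its group in all 5. After the composition correction the log2 differences were -1.40 for RFC3, -1.35 for NAA50, -1.09 for MIGA1, -0.98 for CHIC1 and -1.53 for EPB41L4B. The transcripts of RFC3, NAA50, MIGA1 and CHIC1 fall in the same GC bin as NRAS, and that of EPB41L4B, at 49.1%, does not.

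Other genes of the RAS pathway moved in both directions. Their lists were drawn up with earlier results of these data known, so the calls and p-values below are a description. Of 107 genes in 7 lists, 87 were tested, of which 5 rose and 10 fell in limma, beside 4.12% of all tested genes called higher and 5.68% called lower. The median log2 difference was -0.10 over the 87 genes and 0.00 over all tested genes. These background values also apply to each list below. The number called depended on single libraries. It was 1 without sh-LINC00958 replicate 1, 22 without replicate 2 and 2 without replicate 3, and 1 and 0 without sh-NC replicates 1 and 2. After the composition correction 8 of the 15 were still called.

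Among exchange factors and adaptors, which carry receptor signals to RAS, 1 of 7 tested genes fell and 0 rose. FRS2, which docks the exchange factor complex at FGF receptors, went from 37.8 and 51.8 TPM to 24.6, 25.8 and 25.8 TPM (log2 difference -0.78, limma adjusted p = 0.0321). It was no longer called after the composition correction, at -0.40. The list's median was -0.21.

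Among GTPase-activating and SPRED proteins other than NF1, 2 of 11 tested genes fell and 1 rose, with a median of 0.07. SPRED1, which brings neurofibromin to RAS at the membrane, fell from 21.9 and 20.7 TPM to 10.7, 13.2 and 9.81 TPM (log2 difference -0.87, limma adjusted p = 0.0273). DAB2IP, a RAS GTPase-activating protein gene, fell from 25.5 and 25.6 TPM to 16.7, 16.1 and 16.0 TPM (-0.62, limma adjusted p = 0.0215). Both were still called after the composition correction, at -0.59 and -0.79. LZTR1, a ubiquitin ligase adaptor that promotes degradation of RAS proteins, rose from 37.2 and 43.9 TPM to 58.9, 60.0 and 65.7 TPM (0.59, limma adjusted p = 0.0303; 0.42 and not called after that correction).

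Of 10 genes for the lipid modification and trafficking of RAS, ICMT alone rose and 0 fell, with a median of -0.17. ICMT methylates the prenylated carboxyl terminus of RAS proteins. It went from 59.8 and 63.2 TPM to 101, 105 and 97.0 TPM (log2 difference 0.71, limma adjusted p = 0.0122; 0.67 and still called after the composition correction).

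Among RAF partners, MEK and ERK genes, 1 of 20 rose, 1 fell, and 18 did not pass, with a median of -0.11. MAPK3, which encodes ERK1, rose from 68.2 and 67.5 TPM to 95.5, 89.3 and 100 TPM (log2 difference 0.48, limma adjusted p = 0.0282). PPP1CB, a catalytic subunit of protein phosphatase 1, fell from 108 and 107 TPM to 62.4, 79.1 and 57.1 TPM (-0.70, limma adjusted p = 0.0400). Neither was called after the composition correction, at 0.29 and -0.25.

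Of 18 tested GTPases of the wider RAS branch, 3 fell and 0 rose, with a median of -0.05. RHEB, the GTPase that activates mTORC1, fell from 231 and 291 TPM to 138, 134 and 132 TPM (log2 difference -0.94, limma adjusted p = 0.0138) and was still called at -0.96 after the composition correction. RAP1B, an adhesion GTPase, fell from 285 and 276 TPM to 190, 158 and 165 TPM (-0.72, limma adjusted p = 0.0183), and RAP2A had a log2 difference of -0.58 (limma adjusted p = 0.0407). Neither RAP gene was called after that correction, at -0.39 and -0.25.

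Other RAS effectors included 2 that rose and 0 that fell among 12 tested, with a median of -0.04. RASSF1, a scaffold that binds Hippo kinases, rose from 13.7 and 14.0 TPM to 21.7, 23.9 and 23.3 TPM (log2 difference 0.69, limma adjusted p = 0.0199; 0.50 and still called after the composition correction). RGL2, an exchange factor for RAL, had a log2 difference of 0.45 (limma adjusted p = 0.0394; 0.27 and not called after that correction).

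Transcripts that commonly report ERK signalling were listed as 10 genes. Of these 9 were tested, 3 fell and 0 rose, with a median of -0.34. Over all tested genes 5.68% were called lower and 4.12% higher, and the median was 0.00. CCND1, which encodes cyclin D1, DUSP4, an ERK phosphatase, and SPRY4, a feedback inhibitor, had log2 differences of -0.74, -0.69 and -0.49 (limma adjusted p = 0.0103, 0.0336 and 0.0183). All were still called after the composition correction. None of the 3 was called without sh-LINC00958 replicate 1 or with the replicate number as a block. The other 6 did not pass, and they were named after their values were seen. Groups of PHLDA1, SPRY2 and ETV5 did not overlap in the downward direction. Those of EPHA2 and ETV4 did not overlap in the upward direction. Among all tested genes, groups did not overlap for 49.9% in either direction. ETV5, an ETS family transcription factor gene, measured 146, 149 and 124 TPM against 184 and 194 TPM, so its groups did not overlap (-0.44, limma adjusted p = 0.0507). It was called after the composition correction (-0.45, limma adjusted p = 0.0416), with a pseudocount of 5, with a minimum mean of 5 TPM and with median-ratio or quantile scaling. ETV5 was not called with a pseudocount of 0.1, without a filter, without the mean-variance trend or with the replicate number as a block. Nor was it called without sh-LINC00958 replicate 1 or replicate 3. Fits without a control library are left out of this listing, since only 1 control library then remains. The ERK phosphatase gene DUSP6 measured 373, 213 and 335 TPM against 236 and 242 TPM, with sh-LINC00958 replicate 2 below both controls and the other libraries of its group above them. Without that library DUSP6 and ETV5 both passed, DUSP6 as higher and ETV5 as lower in sh-LINC00958.

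**Figure D5:**
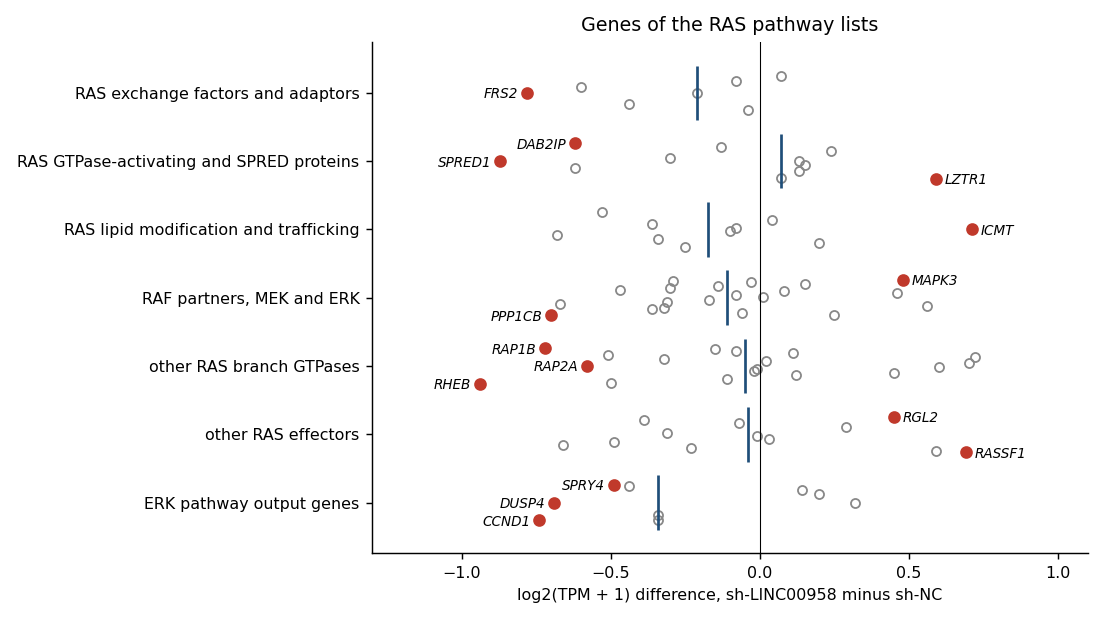
Log2(TPM + 1) difference, sh-LINC00958 minus sh-NC, of each tested gene in the 7 pathway lists. Filled red points passed in limma at an adjusted p of 0.05 and are named, open points did not, and blue bars give list medians. The 15 named genes lie on both sides of 0, from -0.94 (RHEB) to 0.71 (ICMT).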

How the data were processed

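The TPM table was deposited by the authors with a column for each library. Per the submitters' processing notes, the tools were StringTie 1.3.3b, HISAT2 2.0, Trimmomatic 0.36 and FastQC 0.11.2, and the build was GRCh38. The sources used here give no annotation release or strand setting. GENCODE release 29 held 57836 of the 58174 gene IDs and gave their coordinates and the length and GC content of the longest transcript. Columns were matched to samples by title.

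The comparison used limma 3.58.1 in R 4.3.3 on log2(TPM + 1) with a mean-variance trend, for genes with a mean of at least 1 TPM, two-sided, and p-values were Benjamini-Hochberg adjusted over the 17049 genes. Fold changes on this scale understate the change of low genes. The composition correction subtracted natural splines (4 degrees of freedom each) on GC content and length from every library.

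The members and lists were chosen with earlier results of these data known. Named genes are the 8 members, at most 4 called genes per pathway list (with none called, that of smallest p), SIKE1, the 5 genes most like NRAS and LINC00958. ETV5, DUSP6, PHLDA1, SPRY2, EPHA2, ETV4 and the neighbours TRIM33, TSPAN2, BCAS2, DENND2C and VANGL1 fall outside this rule. They were named after their values were seen. MLLT4 was looked up as AFDN. Markers came from fixed lists. A gene the rule takes is not reported here.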

Additional observations from a re-analysis of the deposited data

How the results depend on the processing

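The NRAS log2 difference kept its sign under every alternative run. It ranged from -1.76 (pseudocount 0.1) to -1.42 (GC and length trend removed) with all libraries in the fit, and from -1.85 to -1.62 with 1 library left out. With 1 library left out the number of the 8 genes called ranged from 0 to 2, of pathway genes from 0 to 22 and of all genes from 16 to 2390. The lone control library is then assumed to vary like the others. Pathway genes called, 15 as reported, were 9 with the GC and length trend removed, 6 without a filter and 9 without the mean-variance trend. All genes called, 1671 as reported, were 901, 476 and 889 in the same order. With the replicate number as a block, 0 of the 8 genes, 0 pathway genes and 2 of all genes were called, the NRAS log2 difference was -1.62, and 1 residual degree of freedom was left. Taken over all tested genes, same-numbered libraries did not deviate together (correlations of 0.001 and 0.05). A pairing that acts on part of the genes was not tested. Pseudocounts of 0.1 and 5, a mean of at least 5 TPM, median-ratio scaling and quantile normalization kept the counts within 1.5 times; MRAS is under that stricter filter. For the other 7 genes, 89 of 97 alternative log2 differences lay within 1 SD of the reported value; the 8 that did not were those of BRAF with a pseudocount of 5 (-0.19), of HRAS, RRAS, RRAS2, BRAF and NF1 with the GC and length trend removed, and of ARAF without either control library. The cause of these changes was not tested. TPM gives no depth, so no counting error can be stated.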
